A study of Mus musculus with 9 samples.

Results

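The genes described here are 45 genes for handling cholesterol, lipoproteins and fatty acids, listed by name. The list was chosen with earlier results of these data known, so its shares of called genes are descriptive only. Where several single-symbol probe sets carried a gene, the one brightest on average over the 9 arrays was read. On that basis 40 of the 45 were measured, out of 22180 genes in all. Idi1 and Scd2 lie only on probe sets that name several genes, and Nr1h2, Soat1 and Acsl1 were not analysed here. The measured genes comprised 10 of sterol synthesis, 3 of sterol control, 10 of lipoprotein and sterol traffic, 7 of fatty acid control, binding and storage, 4 of fatty acid synthesis and activation, and 6 of fatty acid oxidation.

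The cells were CD11b+Ly6G- myeloid cells taken 24 h after an incision from the plantar hindpaw of mice (male, C57BL/6J, 8 weeks old). They were sorted by Ly6C into high, medium and low gates, each measured on 3 arrays (9 in total). All groups share the strain, the wound and the time, and unwounded skin or blood was not analysed here. The labels do not state whether a gate's replicates came from separate animals, so p-values reflect the spread of these samples only, and that spread may be technical. Ly6C is a surface protein carried in abundance by monocytes newly arrived from blood and sparsely by many resident macrophages. A gate is therefore a mixture, and in such sorted mixtures fewer cells of a type and less RNA per cell cannot be told apart.

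Cells make cholesterol from acetyl-CoA by the mevalonate pathway, and SREBP-2 (Srebf2) switches on that pathway when sterol in the endoplasmic reticulum is low, while the INSIG proteins hold it back. When sterols are in excess, oxysterols activate the liver X receptors (Nr1h3 encodes LXR alpha), which raise the cholesterol exporters ABCA1 and ABCG1, carrier apolipoproteins and the ubiquitin ligase IDOL (Mylip). Macrophages take up lipid from dying cells and lipoproteins, store it in droplets as esters, export it or burn the fatty acids in mitochondria. Fatty acids reach the mitochondrial matrix through the carnitine shuttle (Cpt1a, Cpt2) and are shortened there by chain-length specific dehydrogenases such as Acadm.

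The values are deposited log2 intensities, and every difference below is on the log2 scale and was tested with limma over all 22180 genes with Benjamini-Hochberg adjustment at 0.05. Array medians lay between 3.93 and 4.10. The classical monocyte list averaged 10.51 to 10.68 on the high arrays, 9.71 to 9.94 on medium and 7.78 to 8.66 on low. The tissue macrophage list ran the other way (7.51 to 8.01, 8.16 to 8.84 and 9.74 to 9.98), and dendritic cell markers were highest in low (6.74 to 6.82, against 4.79 to 5.13 in high). Fibroblast markers, which myeloid cells lack, averaged 7.04 to 8.21 on high arrays, 5.32 to 5.47 on medium and 4.82 to 5.05 on low. Limma passed 10 of their 11 genes as lower in low than in high, and the other, Pdgfrb, was lower without passing (-0.40). The part of any of these cell types in the results below was not tested. The list of adipocytes, cells rich in several of these transcripts, averaged 3.84 to 4.10 on all arrays. Adipoq, Lep and Cidec, among its dimmer genes, lay between 2.81 and 3.68. Lipe and Retn were higher, at 4.52 to 5.50 and 4.41 to 5.47. Plin1 was lower on every low array than on any high array (-0.34, limma adjusted p = 0.211).

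Between Ly6C low and high cells, 6 of the 40 genes differed. Sqle and Dhcr7 of sterol synthesis, the phospholipid transfer protein gene Pltp and the fatty acid dehydrogenase gene Acadm were higher in low. The apolipoprotein gene Apoc2 and the lipid droplet coat gene Plin2 were lower. The 4 higher and 2 lower genes are 15% of the 40, against 5.67% of all genes (3.35% higher and 2.32% lower). These genes are brighter than most, 65% of them having a mean of at least 6 against 26.6% of all genes. Among genes that bright, 4 of 26 passed (15.4%), against a background of 13.8%, so the share called was near that of equally bright genes. The arrays of low and high did not overlap for 19 of the 40 genes (47.5%, background 20.1%), 10 of them higher in low and 9 lower. That background is all genes, which are dimmer on the whole, and equally bright genes were not counted for it. The median difference was 0.16, beside 0.01 over all genes. Without low replicate 3, the low array with the highest neutrophil markers (6.57), the counts were 3 higher and 2 lower, with Fabp4 called and Dhcr7 and Plin2 not.

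Between low and medium, 6 of 40 genes passed as well, 4 higher in low (Sqle, Dhcr7, Acadm and the carnitine transferase gene Cpt1a) and 2 lower (Apoc2 and Plin2). That is 15%, against 1.93% of all genes (1.38% higher and 0.541% lower) and 4.66% of the genes with a mean of at least 6, of which 4 of the 26 passed. For 22 of the 40 genes the arrays of low and medium did not overlap (55%, background 16.8%, again over all genes and not equally bright ones). Between medium and high, limma passed 0 of the 40, against 0.239% of all genes (0.0406% higher and 0.198% lower) and 0.491% of those with a mean of at least 6. At an unadjusted p under 0.05 there were 8 (20%, against 7.53% of all genes), and 8 had arrays that did not overlap (20%, background 10.7%). Equally bright genes were not counted for either share. The 3 comparisons share arrays in pairs, so their counts are given side by side only. Over all genes the low to medium split of 307 higher and 120 lower became 242 and 162 with quantile normalization repeated.

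**Figure D1:**
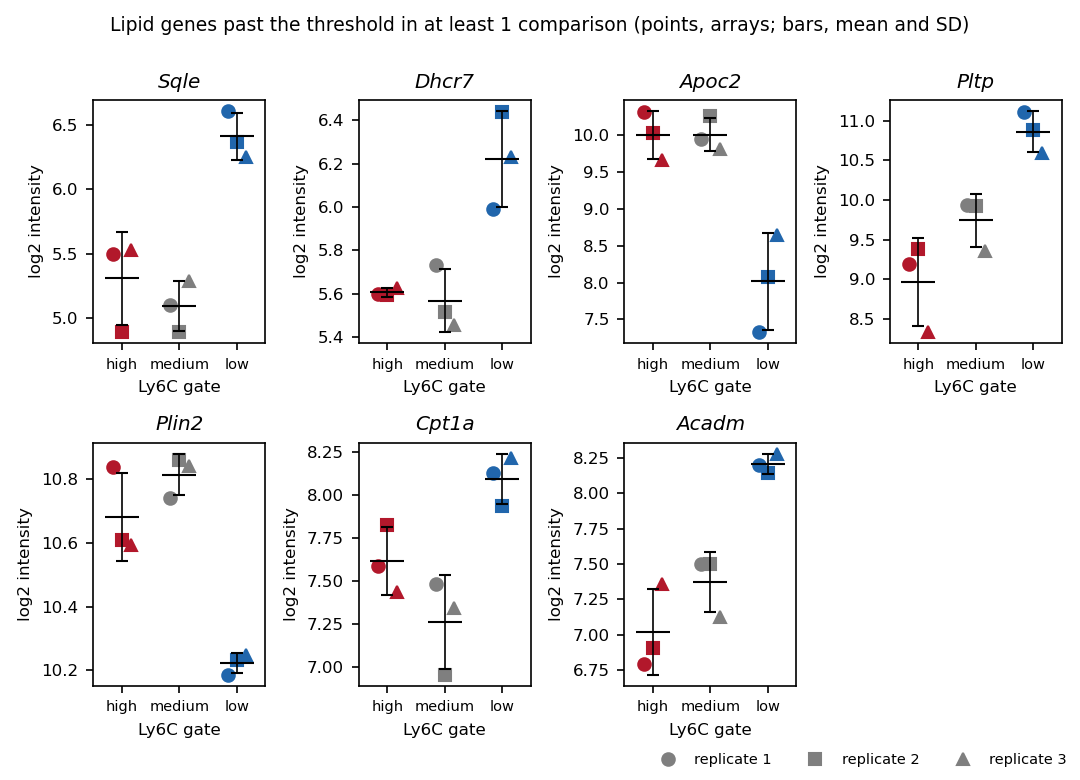
Log2 intensity on each array (points) with gate mean and SD (bars) of the 7 genes past the limma threshold in at least 1 comparison, by Ly6C gate (3 arrays per gate). Low arrays lie above all high arrays for Sqle, Dhcr7, Pltp, Acadm and Cpt1a and below them for Apoc2 and Plin2, and the mean of medium is nearer to that of high than to that of low for all 7.

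Sequence upstream of the genes was read from RefSeq (GRCm38.p6), which lists a promoter for 34 of the 45. The search covered the 250 bases before each listed start site, on both strands, for 3 motifs. They were the sterol regulatory element bound by SREBP (TCACNCCAC), the CCAAT box bound by NF-Y, and DR4, the repeat bound by liver X receptors (2 GGTCA half-sites in the same orientation with 5 bases between them). In the windows printed here no CCAAT match overlaps the sterol element. A sterol regulatory element was found for 2 of the 34 genes, Hmgcs1 and Acsl1, and in 1.22% of 27025 genes with a listed promoter. CCAAT stood in 19 of the 34, against 37.5% of all genes, and in 11 of the 11 sterol synthesis and sterol control genes that have an entry. DR4 was found in 0 of the 34 and in 0.0703% of all genes. A match is a description of letters in this window and not a shown site. The windows below are those of the called gene Dhcr7, of Cyp51, which was lower on every medium array than on any other, of Hmgcs1, the 1 measured gene with an entry that holds the sterol element, and of Pltp and Apoc2, which had the largest rise and fall. Each runs 5′ to 3′ on the gene's strand and ends just before the start site, and capitals mark CCAAT on either strand (ATTGG on the reverse) and the sterol element TCACCCCAC.
Dhcr7: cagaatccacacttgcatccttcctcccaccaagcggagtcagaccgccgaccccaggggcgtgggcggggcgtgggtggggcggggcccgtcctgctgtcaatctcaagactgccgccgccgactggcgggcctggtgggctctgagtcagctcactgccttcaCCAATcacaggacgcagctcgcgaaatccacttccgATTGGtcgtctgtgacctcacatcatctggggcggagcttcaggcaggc
Cyp51: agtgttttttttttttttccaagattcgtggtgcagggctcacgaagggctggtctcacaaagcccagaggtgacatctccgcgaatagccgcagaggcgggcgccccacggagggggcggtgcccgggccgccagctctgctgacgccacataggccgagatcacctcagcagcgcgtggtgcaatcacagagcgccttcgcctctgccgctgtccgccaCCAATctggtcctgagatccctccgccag
Hmgcs1: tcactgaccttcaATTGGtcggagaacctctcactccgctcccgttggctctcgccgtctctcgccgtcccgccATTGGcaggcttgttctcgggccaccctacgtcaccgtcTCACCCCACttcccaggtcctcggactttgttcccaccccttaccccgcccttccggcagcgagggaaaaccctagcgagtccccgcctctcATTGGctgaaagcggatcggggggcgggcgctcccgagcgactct
Pltp: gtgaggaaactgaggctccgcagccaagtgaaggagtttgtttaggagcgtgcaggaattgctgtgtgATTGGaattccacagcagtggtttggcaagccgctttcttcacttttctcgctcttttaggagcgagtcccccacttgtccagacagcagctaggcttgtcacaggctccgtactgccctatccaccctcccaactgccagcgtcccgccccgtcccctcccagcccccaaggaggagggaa
Apoc2: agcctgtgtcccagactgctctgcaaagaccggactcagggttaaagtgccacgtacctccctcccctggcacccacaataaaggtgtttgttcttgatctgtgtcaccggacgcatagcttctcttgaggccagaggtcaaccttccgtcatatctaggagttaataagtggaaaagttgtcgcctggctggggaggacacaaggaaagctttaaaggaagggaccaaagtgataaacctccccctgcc
The Dhcr7 window lies at chr7:143829964-143830213 on the plus strand, before the most downstream of 3 listed start sites, and its matches begin at positions -85 and -49 from the start. Cyp51 (chr5:4104698-4104947, minus strand) has 1 match, at -29. Hmgcs1 (chr13:119690101-119690350, plus strand) holds the sterol element at -137 and CCAAT matches at -237, -176 and -45. In the Pltp window (chr2:164857709-164857958, minus strand) the match lies at -182, and the Apoc2 window (chr7:19677942-19678191, minus strand) holds no match to the 3 motifs.

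Among sterol synthesis genes, 2 of 10 rose in Ly6C low against high, 0 fell and 8 did not pass. The 2 called are 20%, beside 5.67% of all genes and 13.8% of those with a mean of at least 6. Both called genes, Sqle and Dhcr7, had a mean under 6 over all arrays. No sterol synthesis gene with a mean of at least 6 was called, so the 20% cannot be set against the 13.8%. Sqle encodes squalene epoxidase, which adds the first oxygen on the way to the sterol rings and is a slow step of the pathway. It read 5.50, 4.89 and 5.53 in Ly6C high, 5.10, 4.89 and 5.28 in medium, and 6.61, 6.37 and 6.25 in low. All low arrays stood above all others, while medium and high overlapped. The rise was 1.10 against high (SE 0.19, 2.15-fold, limma adjusted p = 0.0121) and 1.32 against medium (2.49-fold, adjusted p = 0.0132). Without low replicate 1 the limma adjusted p-values became 0.0520 and 0.0587, and the difference from medium no longer passed on leaving out any of 3 arrays.

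Dhcr7, the reductase that makes cholesterol from its last precursor, read 5.60, 5.59 and 5.63 in high, 5.73, 5.52 and 5.46 in medium, and 5.99, 6.44 and 6.23 in low. Here too low did not overlap with either other gate. The difference was 0.61 (SE 0.13, 1.53-fold, adjusted p = 0.0268) from high and 0.65 (1.57-fold, adjusted p = 0.0428) from medium. Both calls are near the threshold. Of 9 fits that each left out an array, 5 lost the first (highest 0.0844, low replicate 2 left out) and 8 the second (highest 0.153, medium replicate 3 left out), as did quantile normalization (0.0722 and 0.0946). Both were also lost with the trended and robust prior and with only the 2 gates compared (limma adjusted p = 0.063 and 0.104). The second was lost with the replicate block too (0.0633).

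The other 8 genes of the pathway did not pass between low and high, with differences from -0.32 to 0.72. Hmgcs1, at the entry to the mevalonate pathway, differed by 0.13 (95% interval -0.39 to 0.66). Mvk, mevalonate kinase, read 4.20, 4.48 and 4.30 in high and 5.70, 4.62 and 4.82 in low, which did not overlap (0.72, adjusted p = 0.215). Low replicate 1 stood far above the other low arrays. Cyp51, the demethylase that acts on lanosterol, had another order and read 5.75, 6.27 and 6.67 in high, 5.00, 5.39 and 5.19 in medium, and 5.85, 5.92 and 5.98 in low. Every medium array lay below every other array. The difference of medium from high was -1.03 (adjusted p = 0.142), and low against medium was 0.72 (adjusted p = 0.140). The first passed in 1 of 9 fits with an array left out (adjusted p = 0.0354, high replicate 1) and reached 0.430 without medium replicate 1. Sc5d, the sterol desaturase that acts just before Dhcr7, differed by 0.42 from high (adjusted p = 0.411) and by 0.70 from medium (adjusted p = 0.188). Lss, which closes the sterol rings, was dim, at 3.15 to 4.22 over all arrays.

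Of the 3 sterol control genes, 0 passed in any of the 3 comparisons with limma, against 0 (low and high), 2 (medium and high) and 2 (low and medium) at an unadjusted p under 0.05. Srebf2, the activator of the pathway, read 8.43, 8.26 and 8.14 in high, 7.92, 7.66 and 8.15 in medium, and 8.75, 8.52 and 8.34 in low. Low lay above medium on every array, and high overlapped with both. The difference of low from medium was 0.63 (adjusted p = 0.0911, and 0.0475 with dim genes filtered out), and from high 0.25 (adjusted p = 0.481). That from medium passed in 0 of 9 fits with an array left out (highest adjusted p = 0.264, low replicate 1). Insig1, the brake on SREBP release and itself a sterol target, averaged 9.04 ± 0.21 in high (SD, n = 3), 8.64 ± 0.27 in medium and 9.09 ± 0.13 in low. Srebf1, which drives fatty acid synthesis genes, was at 5.86, 5.60 and 5.95 in high, 6.06, 5.85 and 5.81 in medium, and 5.77, 5.85 and 6.01 in low. Its gates overlapped throughout, and the 95% interval of low minus high was -0.21 to 0.36.

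Medium had the lowest mean for 6 of the 10 sterol synthesis genes and for 2 of the 3 control genes, beside 24.7% of all genes. Sqle, Cyp51, Sc5d, Insig1, Srebf2 and Dhcr7 were among them. This order of means was not tested: limma passed 0 of the 10 between medium and high (1 at an unadjusted p under 0.05), and Cyp51 alone of the 10 had all medium arrays below all high arrays.

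Lipoprotein and sterol traffic genes went both ways in low against high, with 1 of 10 higher, 1 lower and 8 not past the threshold. That is 20% called, beside 5.67% of all genes and 13.8% of those with a mean of at least 6. Pltp, which moves phospholipid between lipoproteins and remodels HDL, read 9.20, 9.38 and 8.34 in high, 9.94, 9.93 and 9.35 in medium, and 11.11, 10.88 and 10.59 in low. The low arrays stood above all others, and medium lay between, with its lowest array just under the highest of high. Low exceeded high by 1.89 (SE 0.28, 3.71-fold, limma adjusted p = 0.00595), a call kept whichever array was left out (at most 0.0309). Against medium the difference was 1.12 (adjusted p = 0.0911), which passed with dim genes filtered out (0.0353) and without high replicate 3 (0.0361). In the other 8 of 9 fits with an array left out that difference did not pass (highest adjusted p = 0.267, low replicate 1). The tissue macrophage list was also higher in low than in high, for 13 of 14 genes, of which 12 passed.

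Apoc2, the apolipoprotein that activates lipoprotein lipase, read 10.31, 10.03 and 9.66 in high, 9.94, 10.26 and 9.81 in medium, and 7.33, 8.07 and 8.64 in low. High and medium had nearly the same mean, and every low array lay at least a full log2 unit below them. Low replicate 3 was nearest to the other gates, and it was also the low array with the highest classical monocyte list (8.66). The fall was -1.99 from high (SE 0.30, 3.96-fold lower, adjusted p = 0.00702) and -1.99 from medium (3.97-fold lower, adjusted p = 0.0170). The first was kept whichever array was left out (at most 0.0289), and the second was lost on leaving out any of 4 arrays (highest 0.0644, low replicate 2). The second was also lost with only the 2 gates compared (0.0518). In the RefSeq table Apoc2, Apoc4, Apoc1 and Apoe are consecutive protein-coding genes on chromosome 7. Apoc1, an inhibitor of lipoprotein uptake, fell by 2.26 from high to low (4.8-fold, adjusted p = 0.000433). Apoe, the ligand for remnant uptake and an acceptor of exported cholesterol, did not pass: it read 7.22, 7.31 and 7.06 in high, 7.32, 7.16 and 7.22 in medium, and 6.91, 6.85 and 7.01 in low. Its low arrays were below all others by a small margin (-0.27, 95% interval -0.51 to -0.04, adjusted p = 0.191).

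Lpl encodes lipoprotein lipase, which frees fatty acids from triglyceride-rich particles. Its values were 8.32, 7.94 and 7.61 in high, 8.94, 9.39 and 8.62 in medium, and 8.90, 9.24 and 8.62 in low. Medium and low covered the same range and both lay above high. The difference of low from high was 0.97 (1.96-fold, adjusted p = 0.0572) and of medium from high 1.03 (adjusted p = 0.270), and its other probe set gave 1.04 and 1.07. The low difference passed with dim genes filtered out (0.0226) and without high replicate 1 or medium replicate 2 (0.0479 and 0.0487). It did not pass in the other 7 of 9 fits with an array left out (highest adjusted p = 0.179, low replicate 2). With only the 2 gates compared it did not pass either (0.0851). The lipase and its activator Apoc2 had opposite signs between low and high, of which only that of Apoc2 passed.

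The exporters Abca1 and Abcg1, the receptor gene Nr1h3 and Mylip did not pass in any of the 3 comparisons. Abca1, which loads cholesterol onto lipid-poor apolipoprotein, read 10.07, 10.18 and 10.09 in high, 10.53, 10.19 and 10.54 in medium, and 10.22, 10.18 and 9.94 in low. The difference of low from high was 0.00 (95% interval -0.28 to 0.29), and medium was 0.31 above high (adjusted p = 0.611). Abcg1, which exports cholesterol to HDL, was at 7.97, 7.69 and 7.21 in high, 8.37, 7.70 and 7.56 in medium, and 7.93, 7.90 and 7.87 in low. Its gates overlapped, and low arrays agreed most closely with each other. Nr1h3 read 5.29, 5.29 and 5.34 in high, 5.48, 5.58 and 5.35 in medium, and 5.28, 5.11 and 5.00 in low. Medium was highest and low lowest without overlap, but the whole range was under 1 log2 unit (low minus medium -0.34, adjusted p = 0.168). Mylip was at 8.20 ± 0.06 in high, 8.23 ± 0.23 in medium and 8.57 ± 0.10 in low (adjusted p = 0.154 against high).

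Ch25h, which makes the oxysterol 25-hydroxycholesterol and is induced by interferon and microbial signals, was lowest in medium. It read 6.33, 6.06 and 5.94 in high, 3.89, 5.33 and 5.35 in medium, and 6.48, 6.17 and 6.74 in low. All medium arrays lay below all others, and medium replicate 1 was far below the rest of its gate. Neither the difference from high (-1.25, adjusted p = 0.394) nor that of low from medium (1.61, adjusted p = 0.0613) passed. The latter passed for Ch25h without medium replicate 1 (1.12, adjusted p = 0.0475) and with dim genes filtered out, and was 0.89 with the mean of its probe sets (adjusted p = 0.0821). In the other 8 of 9 fits with an array left out it did not pass (highest adjusted p = 0.181, low replicate 1). A second probe set of this gene was nearly flat, at means of 3.78, 3.75 and 3.92. Lrp1, a large receptor for remnants and protease complexes, differed little (9.70 ± 0.01, 9.80 ± 0.29 and 9.59 ± 0.12).

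**Figure D2:**
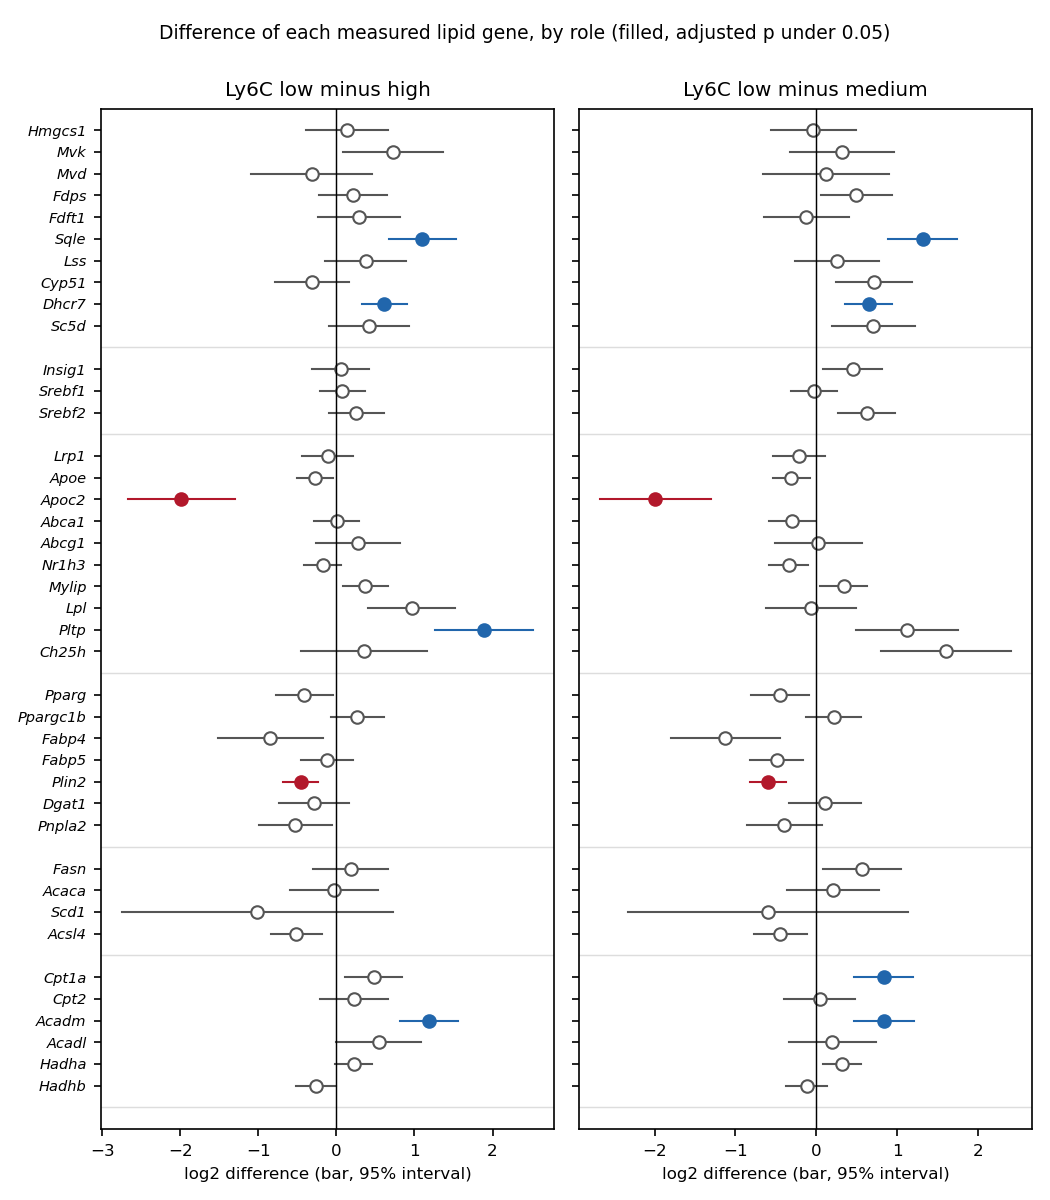
Log2 differences of Ly6C low from high and from medium for the 40 measured genes, grouped by role, with 95% intervals from the limma fit (3 arrays per gate). Pltp and Acadm have the largest rises from high and Apoc2 the largest fall, and unadjusted intervals exclude 0 for 16 genes against high (40%, against 17.9% of all genes) and 23 against medium (57.5%, against 14.1%). All genes are dimmer on the whole, and equally bright genes were not counted for these shares.

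Of 7 genes for fatty acid control, binding and storage, 1 fell in low against high. That is 14.3%, beside 5.67% of all genes and 13.8% of those with a mean of at least 6, so it was near the share of bright genes. The other 6 did not pass, and 0 rose past the threshold. All of the 7 but Ppargc1b, the gene of a mitochondrial coactivator near the dim end (4.02 in high), had a negative difference. Plin2, the coat protein of lipid droplets, read 10.84, 10.61 and 10.59 in high, 10.74, 10.86 and 10.84 in medium, and 10.19, 10.23 and 10.25 in low. Low arrays lay close together and below all others. The fall was -0.46 from high (SE 0.10, 1.37-fold, adjusted p = 0.0303) and -0.59 from medium (1.51-fold, adjusted p = 0.0228). Leaving out 1 array lost the first call in 6 of 9 fits (highest 0.0992, low replicate 1) and the second in 5 (highest 0.0919, medium replicate 3), and the first was also lost with only the high and low arrays fitted (0.0703).

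Fabp4, a fatty acid binding protein of macrophages and adipocytes, read 8.80, 8.42 and 8.42 in high, 8.36, 9.20 and 8.92 in medium, and 7.27, 7.47 and 8.36 in low. All low arrays lay below both other gates, replicate 3 by less than 0.1 (8.36 against lowest values of 8.36 in medium and 8.42 in high). The difference from high was -0.85 (adjusted p = 0.161, and 0.0323 without low replicate 3), and that from medium was -1.13 (adjusted p = 0.108, and 0.0268 without low replicate 3). For Fabp4 the other 8 of 9 fits with an array left out passed neither (highest adjusted p = 0.425 and 0.303, low replicate 1). Fabp5, its relative in macrophages and skin, was highest in medium on each array (11.40 to 11.65, against 10.90 to 11.36 in high and 10.96 to 11.21 in low), which did not pass (adjusted p = 0.585 and 0.148 against high and low). All 4 probe sets of Fabp5 had their highest mean in medium. Pparg, the nuclear receptor that drives Fabp4 and Plin2, differed by -0.41 (adjusted p = 0.207). The lipase gene Pnpla2, which starts droplet breakdown, differed by -0.53 (adjusted p = 0.210). Dgat1, which makes triglyceride, differed by -0.29.

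In fatty acid synthesis and activation, limma passed 0 of 4 genes in each comparison, against 1 (low and high), 0 (medium and high) and 2 (low and medium) at an unadjusted p under 0.05. Acaca, which makes malonyl-CoA, read 4.81, 4.77 and 5.51 in high, 4.90, 4.69 and 4.78 in medium, and 5.51, 4.81 and 4.68 in low, with full overlap. Fasn, the synthase that uses malonyl-CoA, was at 5.77 ± 0.33 in high, 5.39 ± 0.26 in medium and 5.96 ± 0.29 in low. Acsl4, which activates arachidonate and other long polyunsaturated acids, was lower in low without overlap (8.58 ± 0.26 in high and 8.07 ± 0.15 in low). Its difference of -0.51 did not pass (adjusted p = 0.0815).

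Scd1, the desaturase that makes oleate, varied more within gates than between them. Its values were 5.62, 7.80 and 5.62 in high, 7.44, 4.40 and 5.95 in medium, and 5.58, 5.29 and 5.13 in low. High replicate 2 and medium replicate 1 stood far above the rest, so the 95% interval of low minus high ran from -2.75 to 0.72. The keratinocyte list (9 genes measured) averaged 5.08 on high replicate 2 and 4.96 on medium replicate 1, against 4.46 to 4.89 elsewhere. Its genes did not all follow that order, and those given next were chosen after their values were seen. Krt14 was at 8.39 on high replicate 2 and 7.06 on medium replicate 1, against 5.75 to 6.75 elsewhere, whereas Krt10 was highest on high replicate 1 (7.38, against 5.41 on high replicate 2). The sebaceous elongase gene Elovl3 was at 5.12 on high replicate 2 and at most 3.48 elsewhere, with 3.07 on medium replicate 1. Their part in the Scd1 values was not tested.

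Fatty acid oxidation showed 1 of 6 genes higher in low against high and 2 of 6 against medium, with 0 lower. These are 16.7% and 33.3%, beside 5.67% and 1.93% of all genes. Among genes with a mean of at least 6 the shares were 13.8% and 4.66%. Acadm, the medium-chain acyl-CoA dehydrogenase, read 6.79, 6.90 and 7.36 in high, 7.50, 7.50 and 7.13 in medium, and 8.20, 8.14 and 8.28 in low. The low arrays were nearly alike and above all others, while medium and high overlapped. Low exceeded high by 1.19 (SE 0.16, 2.28-fold, limma adjusted p = 0.00437), kept whichever array was left out (at most 0.0223). It exceeded medium by 0.83 (1.78-fold, adjusted p = 0.0424), which 7 of the 9 fits with an array left out did not keep (highest 0.142, medium replicate 3).

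Cpt1a, the outer-membrane transferase that commits fatty acids to oxidation, read 7.59, 7.83 and 7.44 in high, 7.48, 6.96 and 7.35 in medium, and 8.13, 7.94 and 8.22 in low. Low lay above both gates on every array. The rise passed against medium (0.83, 1.78-fold, adjusted p = 0.0390) and not against high (0.48, adjusted p = 0.143). Of the fits with an array left out, 7 of 9 did not keep the call (highest 0.133, low replicate 1). Quantile normalization, the replicate block (0.0534) and only the 2 gates compared (0.0745) lost it as well. Its partner Cpt2 differed by 0.22 (95% interval -0.21 to 0.66). Acadl, the long-chain dehydrogenase, differed by 0.54 (adjusted p = 0.281) and Hadha, a subunit of the trifunctional protein, by 0.22 (adjusted p = 0.323). Hadhb, the other subunit, was dim on this array (3.33 to 3.91) and differed by -0.26.

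**Figure D3:**
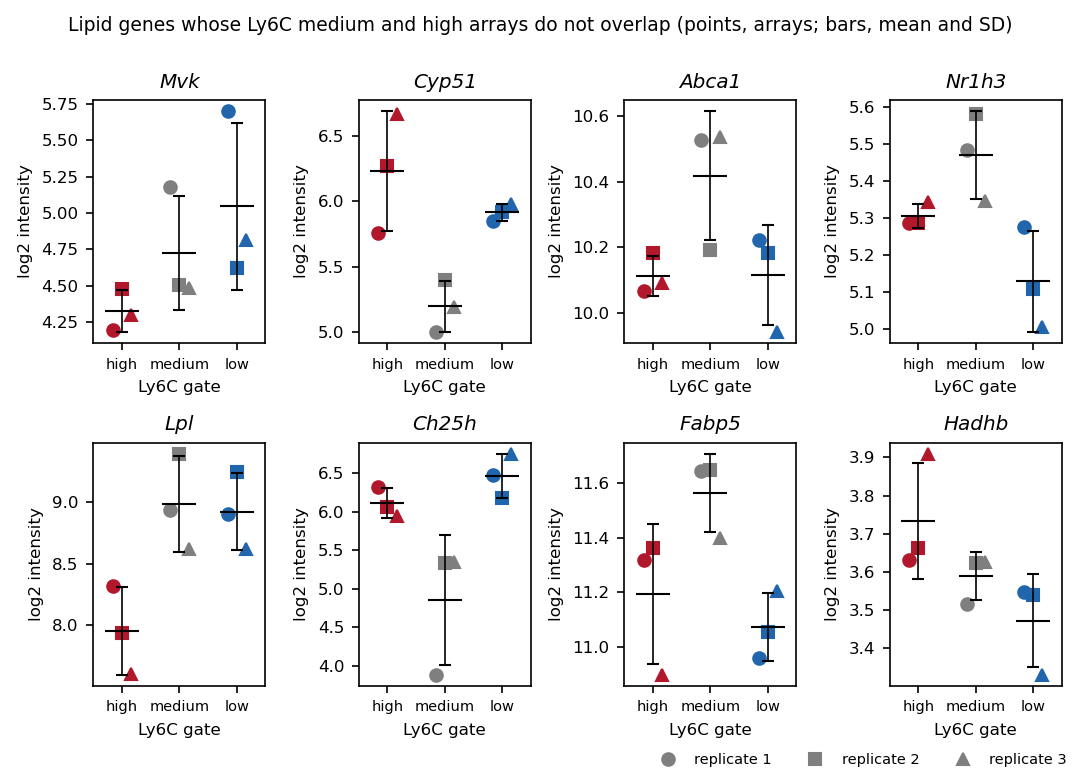
Log2 intensity on each array (points) with gate mean and SD (bars) of the 8 genes whose Ly6C medium and high arrays do not overlap, by gate (3 arrays per gate). Medium is above high for Mvk, Abca1, Nr1h3, Lpl and Fabp5 and below it for Cyp51, Ch25h and Hadhb, and none of these differences passed the limma threshold.

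The medium gate did not lie between the others for most of these genes, as for most of all genes. Its mean was between those of high and low for 13 of 40 (32.5%, against 39.8% of all genes). It was the highest for 13 (32.5%, against 35.5%) and the lowest for 14 (35%, against 24.7%). By role, medium was the highest for 6 of 10 traffic genes, among them Abca1, Nr1h3, Lpl and Apoe, and for 4 of 7 binding and storage genes. It was between for 4 of 6 oxidation genes, Acadm and Acadl among them. With 0 calls between medium and high, these positions describe the means of 3 arrays.

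Other genes of the same pathways, a list of 105 of which 95 were measured, gave 9 higher and 7 lower in low against high (16.8%, beside the 5.67% of all genes). Between medium and high 1 passed (1.05%, beside 0.239%), and between low and medium 5 were higher and 4 lower (9.47%, beside 1.93%). Of the 58 with a mean of at least 6, 13, 1 and 9 passed in the 3 comparisons (22.4%, 1.72% and 15.5%, beside 13.8%, 0.491% and 4.66% of genes that bright). Among 13 further sterol synthesis and control genes limma passed 0 in any comparison. Between low and high, 6 had an unadjusted p under 0.05 (46.2%, against 17.9% of all genes), and these went both ways. Hsd17b7, Mbtps1 and Scap were higher in low (0.80, 0.35 and 0.27), and Lbr, Ggps1 and Stard4 were lower (-0.67, -0.57 and -0.50). Of the 13 differences, 10 were positive (76.9%, against 52.7%). Equally bright genes were not counted for these last shares.

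Traffic genes beyond the main list had 1 of 21 higher and 3 lower in low against high. That is 19% called, beside 5.67% of all genes and 13.8% of those with a mean of at least 6. Cd36, the scavenger receptor for oxidised lipoproteins and fatty acids, rose from 10.20 ± 0.29 (SD, n = 3) in high to 11.18 ± 0.02 in medium and 11.45 ± 0.13 in low. Low exceeded high by 1.24 (2.37-fold, adjusted p = 0.00210) and medium exceeded high by 0.98 (adjusted p = 0.0404), although 9 of 9 fits with an array left out lost the latter (highest 0.180, medium replicate 1). Apoc1 is described above. Smpdl3a, a secreted phosphodiesterase, fell by 1.24 in low (adjusted p = 0.00249). Osbpl8, a lipid transfer protein of the endoplasmic reticulum, fell by 0.57 (adjusted p = 0.0290, and up to 0.0966 without high replicate 3).

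For fatty acid binding and storage, 2 of 22 further genes were higher and 3 lower in low against high. That is 22.7% called, beside 5.67% of all genes and 13.8% of those with a mean of at least 6. Of the 22, only 9 read at least 6 on 3 arrays. Fabp7, another binding protein, fell by 1.46 (adjusted p = 0.0270) and Dgat2, the second triglyceride synthase, by 0.94 (1.92-fold, adjusted p = 0.0281). Lpin1, a phosphatidate phosphatase, rose by 1.40 (adjusted p = 0.0346) and Plin3, a droplet coat protein that is also found in the cytosol, by 0.81 (adjusted p = 0.0353). Leaving out 1 array lost each of these 4 calls in at least 4 of 9 fits. The adjusted p reached 0.0851 for Fabp7 and 0.103 for Dgat2 when low replicate 2 was left out, and 0.121 for Lpin1 and 0.116 for Plin3 when low replicate 1 was. Lpin2, named after its values were seen, fell by 0.75 (adjusted p = 0.00940), and not with the mean of its probe sets (0.387). Plin2 and Plin3 thus had opposite signs, as did Lpin1 and Lpin2. In synthesis and activation 1 of 18 passed (5.56%, beside 5.67% of all genes). This was Fads1, the delta-5 desaturase on the way to arachidonate. It rose from 5.70 ± 0.67 in high to 7.50 ± 0.53 in low (3.46-fold, adjusted p = 0.0210, and 0.0756 without high replicate 2).

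Of 21 further oxidation genes, 5 were higher in low against high and 1 lower, and 4 were higher and 0 lower against medium. These calls are 28.6% and 19% of the list, beside 5.67% and 1.93% of all genes. Among genes with a mean of at least 6 the shares were 13.8% and 4.66%. The median difference of the 21 genes from high was 0.46, with 18 of 21 positive, beside a median of 0.01 and 52.7% positive over all genes. Acat1, the mitochondrial thiolase of ketone body and isoleucine breakdown, read 6.74 ± 0.08 in high, 6.81 ± 0.08 in medium and 7.61 ± 0.05 in low. It rose by 0.87 from high (adjusted p = 0.00149) and by 0.80 from medium (adjusted p = 0.00566). Hsd17b4, the peroxisomal enzyme that hydrates and dehydrogenates shortened acids, rose by 0.96 (adjusted p = 0.00250) and Acot13, a mitochondrial thioesterase, by 0.94 (adjusted p = 0.0133, and 0.0537 without low replicate 1). The remaining calls, Crat and Etfa, were named after their values were seen (0.82 and 0.60, adjusted p = 0.00586 and 0.0115). Slc25a20, the carrier that brings acylcarnitine into the matrix, fell by 1.08 (adjusted p = 0.0178, and 0.0702 without low replicate 2). Of the genes that bring fatty acids into the matrix, then, Slc25a20 fell, while Cpt1a and Cpt2 did not pass between low and high.

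**Figure D4:**
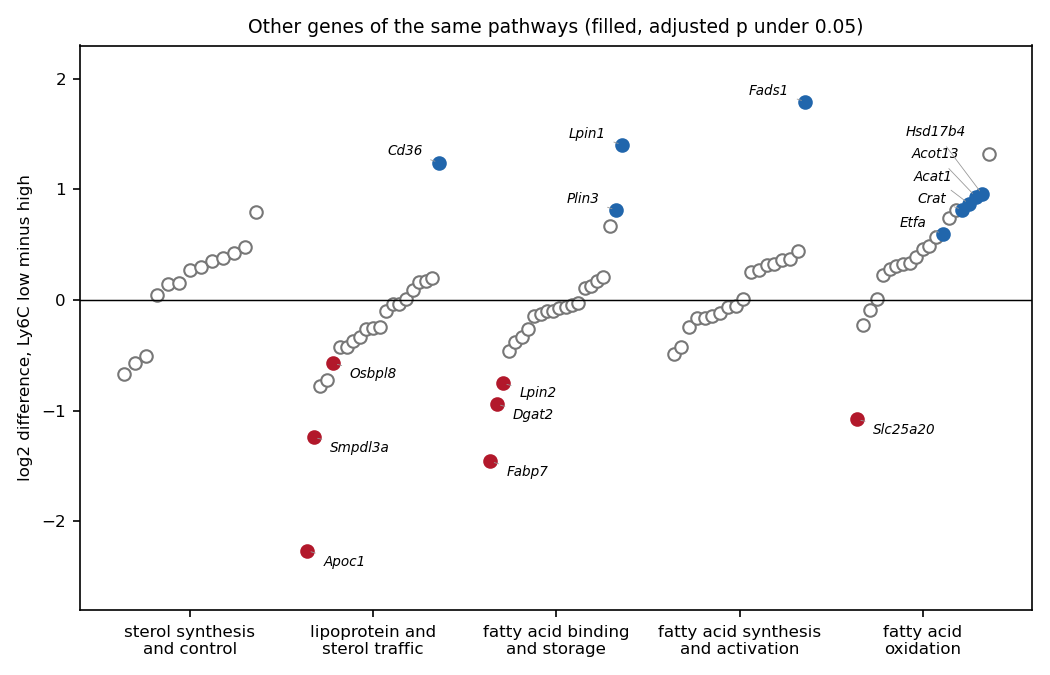
Log2 difference of Ly6C low from high for the 95 other measured pathway genes by list, with filled points for those past the limma threshold. Most points of the oxidation list lie above 0 with 5 higher and 1 lower called, while the traffic list has 3 of its 4 calls below 0.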

How the data were processed

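Affymetrix arrays measured transcripts in 9 sorted samples, 3 per Ly6C gate. RNA was amplified before hybridization, per the labels' protocols. The authors deposited log2 intensities made with RMA, per the submitters' processing notes, and the version and settings are not given in the sources used here, nor is the genome build. RMA corrects background, normalizes between arrays and summarizes probe sets, which compresses differences of dim probes. The values were used as deposited.

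Of 41345 probe sets, 23521 carried 1 gene symbol, 1814 carried several and 16010 had no entry in the table of probe names; only the first were used. The brightest probe set stood for a gene, which left 22180 genes. R 4.3.3 with limma 3.58.1 (lmFit, eBayes, two-sided) fitted all 9 arrays together with 6 residual degrees of freedom. Benjamini-Hochberg adjustment ran over all genes tested, at 0.05. Precision is limited by the number of arrays. The script was tested on simulated data.

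Values on every array are given for genes past the threshold and for a named set of controllers and exporters. They are also given for Cyp51, Ch25h, Fabp4 and Scd1, and for Mvk on the high and low arrays. These genes passed in no comparison and were not in the set named beforehand. Of the other pathway genes, up to 4 per list with the largest difference of low from high past the threshold are named, with Cd36 and Dgat2. The members and lists were chosen with earlier results of these data known. Alternatives were quantile normalization, centring, the mean of probe sets, a filter on dim genes (log2 of at least 6 on 3 arrays), a trended and robust prior, a replicate block, fits of 2 gates only, and leaving out each array.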

Additional observations from a re-analysis of the deposited data

How the results depend on the processing

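Under every alternative tried, 0 of the called differences of the 40 genes changed sign, while 55 of 1884 recomputed differences did so among uncalled ones (at most 0.60 in size). In low against high, the 2 lower genes became 1 with the replicate block and with only the 2 gates compared, and 1 to 2 without single arrays. The 4 higher genes in low against medium became 2 with quantile normalization, the trended prior, the replicate block or only the 2 gates compared, and 0 to 4 without single arrays. The 2 lower genes there became 1 with only the 2 gates compared and 0 to 3 without single arrays. Between medium and high, leaving out single arrays gave 0 to 1 lower genes, the 1 being Cyp51 without high replicate 1. Over all genes, the 1258, 53 and 427 calls (low and high, medium and high, low and medium) became 644, 1 and 211 with only the 2 gates compared, and ranged over 596 to 1243, 2 to 72 and 119 to 522 without single arrays. Fewer arrays entered each of these fits. With dim genes filtered out, 28 of the genes remained among 6306. In low against high 4 were higher and 3 lower, with 20.7% of the 6306 called. Against medium 6 were higher and 3 lower, with 9.4% of the 6306 called. Sqle met the filter only through its low arrays and Ch25h only through high and low ones, so these calls are descriptive only. Dhcr7 did not meet the filter, and Lpl was called higher in low against high. The labels do not say whether equal replicate numbers pair the arrays. Not every pair of same-numbered arrays correlated above 0.1, so the numbers were not taken as pairs: their deviations from the gate means correlated at -0.0166 to 0.309 over 9 pairs, and 5 of 9 arrays correlated best with their own number. With the replicate block the calls over all genes were 1564, 61 and 629. Lpl then passed in low against high (0.0155) and Pltp in low against medium (0.0123), while Plin2 (0.0572) and, against medium, Dhcr7 (0.0633), Acadm (0.0624) and Cpt1a (0.0534) did not. The cause was not tested. Dim genes such as Lss and Hadhb have little signal over background.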
